A study of Mus musculus with 12 samples.

Results

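The genes that encode the proteasome were followed through the transition from naive mouse embryonic stem cells (ESCs) to epiblast-like cells (EpiLCs). Members were all protein-coding genes whose symbol starts with Psma, Psmb, Psmc, Psmd, Psme, Psmf or Psmg followed by a number, and the rule used no measured value. It found 50 of the 51467 genes in the count table. Of these, 48 passed the expression filter and were tested, among 14731 tested genes in all. Psmb11, the thymus-specific β subunit, and Psme2b, an intronless relative of Psme2, were not tested. The members lay on 16 chromosomes. The rule also took Psmc3ip, a cofactor of meiotic recombination that carries the name of a proteasome ATPase and is not a proteasome subunit.

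The study asked what transcription and what mRNA stability each contribute to mRNA changes in this transition. All cells came from a V6.5 ESC line that carries fluorescent reporters of microRNA loci. ESCs were grown in medium with 15% fetal bovine serum, LIF and the 2i inhibitors PD0325901 and CHIR99021, and EpiLCs were collected about 56 h after LIF and 2i were removed, which was done 24 h after plating. Both cell types received 500 µM 4-thiouridine (4sU) for 30 min before lysis, so that RNA made in that time could be biotinylated and captured (4sU libraries, nascent RNA) and compared with rRNA-depleted total RNA (total libraries, mRNA). There were 3 libraries in each of the 4 groups, ESC 4sU, ESC total, EpiLC 4sU and EpiLC total. The study calls its replicates biological, and p-values measure the spread between these libraries. Each labelled sample was divided for the 4sU and the total library, and the labels do not say whether a shared number marks one such sample.

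The 26S proteasome degrades proteins that carry ubiquitin chains. Its 20S core is a barrel of α rings around β rings, in which Psmb5, Psmb6 and Psmb7 encode the chymotrypsin-like, caspase-like and trypsin-like proteases. The 19S regulatory particle binds the ubiquitin chain, removes it and unfolds the substrate with a ring of ATPases (Psmc genes) held by non-ATPase subunits (Psmd genes). Interferon-inducible β subunits (Psmb8, Psmb9, Psmb10) can replace the constitutive proteases to form the immunoproteasome, and the Psme genes encode alternative caps. The subunits of the constitutive particle are commonly made in matched amounts and their genes are known targets of Nfe2l1, which binds antioxidant response elements.

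Depth was 3097693 to 5385644 gene counts in the 4sU libraries and 9300845 to 21975684 in the total libraries. All 8 naive markers fell and all 5 matched EpiLC markers rose in mRNA. The summed markers of other cells in total RNA were as follows: fibroblast genes at 18.7 to 25.4 CPM (counts scaled to the TMM-adjusted library total) in ESCs and 29.2 to 34.1 in EpiLCs, primitive endoderm genes at 4.98 to 10.5 and 8.15 to 9.04, and immune genes at 48.3 to 71.7 and 14.4 to 16.7. Of the 10 fibroblast markers, Col1a2, Dcn and Fbln2 rose in mRNA, Pdgfrb fell, Thy1 and Pdgfra were not called, and Col1a1, Col3a1, Lum and Postn were too low to test. Both ESC libraries numbered 3 stood apart from the other ESC libraries on the third principal component. The spike-in entries held 0 reads, so levels are shares of a library, and fewer cells or less RNA per cell cannot be told apart.

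Short promoter stretches are shown for members described in the results, because Nfe2l1 and interferon are known to act on proteasome genes through antioxidant and interferon response elements. CCAAT was searched beside these and is neither of them. RefSeq promoter windows, 250 bases before to 50 after a start on GRCm38.p6, were matched for 42 members (45 windows). The windows were searched on both strands for the core of the antioxidant response element (TGACNNNGC), for CCAAT and for an interferon response core (GAAANNGAA). Stretches are written 5′ to 3′ on the strand of the gene, with matches in capitals. Psmb5 and Psmb9 lie on the minus strand, so their stretches are the reverse complement of the plus strand at the given positions.
Psmb5 antioxidant core, chr14:54618024-54618052: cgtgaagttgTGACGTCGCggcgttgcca
Psmb6 antioxidant core, chr11:70525338-70525366: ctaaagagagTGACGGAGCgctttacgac
Psmc6 antioxidant core, chr14:45329587-45329615: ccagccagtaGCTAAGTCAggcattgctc
Psme4 antioxidant core, chr11:30771758-30771786: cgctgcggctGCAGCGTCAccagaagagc
Psme1 interferon core, chr14:55578494-55578522: gagctgtgctTTCGCTTTCccttcccgct
Psmb9 CCAAT, chr17:34187324-34187348: gcagccgctgATTGGaaagccgagc
The antioxidant core was found in 6 of the 45 member windows (13.3%) against 12.4% of 32851 windows of all genes. CCAAT stood in 33.3% of the member windows against 37.4%, and the interferon core in 15.6% against 8.56%. No match of one motif overlapped a match of another. The other 6 interferon cores were in Psmb3, Psmb4, Psmc2, Psmd4, Psmd9 and Psmg4, while the windows of Psmb8, Psmb9, Psmb10 and Psme2 held none. The shares of the first 2 motifs lay near those of all promoters, and a match is a run of letters and not a bound site. Psma8, Psmb1, Psmb2, Psmb7, Psmc3, Psmd3, Psmd7 and Psmg2 had no window here.

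In total RNA the constitutive proteasome was lower in EpiLCs. The 31 genes of the constitutive 20S and 19S particles (the α subunits without Psma8, Psmb1 to Psmb7, the Psmc ATPases and 11 Psmd non-ATPases) summed to 8465, 8487 and 7926 CPM in the ESC libraries and to 6453, 6727 and 6829 CPM in the EpiLC libraries. In the 4sU libraries the same genes summed to 2234, 2386 and 2270 CPM in ESCs and to 2316, 2327 and 2286 CPM in EpiLCs. The total libraries did not overlap between the cell types, and the 4sU libraries did. In mRNA, 23 of the 31 fell, none rose and 8 were not called (limma-voom, adjusted p under 0.05). Of all genes tested, 32.1% were called lower by this rule and 31.4% higher. The median change of the 31 was −0.30 on the log2 scale (0.81-fold), beside 0.02 for all genes tested and −0.04 for the protein-coding ones. No member of this set passed a log2 change of 1. Over all 48 members, 28 fell, 5 rose and 15 were not called, with a median of −0.27. The 5 include Psmb8 and Psmb9, which passed the expression filter through EpiLC libraries alone. With library totals alone in place of TMM scaling, 25 fell and 11 rose. The expression levels of 24 of the 31 did not overlap and were lower in every EpiLC total library, against 35.1% of all genes, and 1 (Psma3) was higher in every EpiLC library, against 33.5%.

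**Figure D1:**
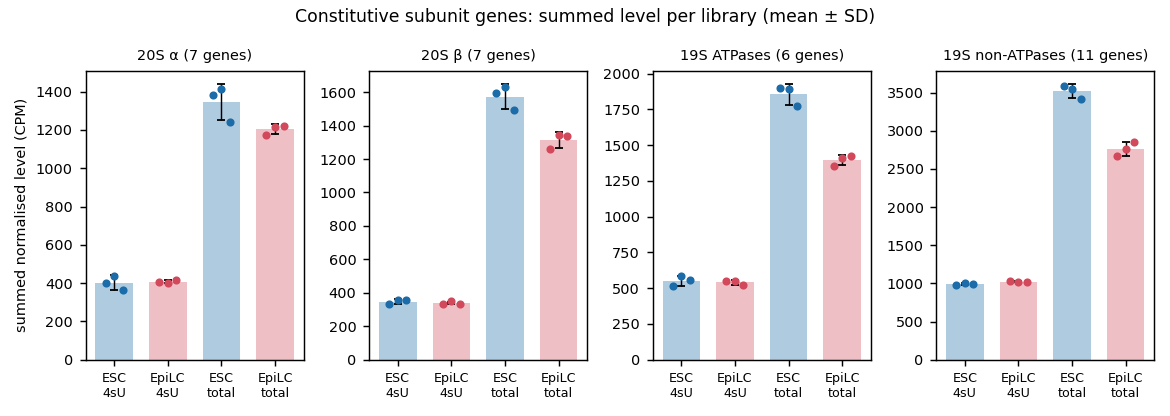
Summed CPM of the constitutive subunit genes in 4 parts of the particle (panels), for each library (points), with the group mean (bar) and SD (error bar, n = 3). In each panel the 4sU groups sit near the same height, and every EpiLC total library lies below every ESC total library.

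In nascent RNA few constitutive genes were called. Of the 31 genes, 2 rose (Psmc6 and Psmd11), 3 fell (Psmc3, Psmd13 and Psmd8) and 26 were not called. By the same rule 23.7% of all genes were higher and 28.8% lower. The median was −0.01, against −0.09 for all genes and −0.06 for the protein-coding ones. The 4sU libraries did not overlap for 4 genes that were higher in EpiLCs and 5 that were lower, where 26.6% and 34.1% of all genes were so ordered. Over all 48 members, 6 rose and 9 fell, and with TMM factors computed within each assay 9 rose and 8 fell. The 6 include Psmb8, which passed the expression filter through EpiLC libraries alone. The mRNA and the nascent comparison used different libraries.

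In the α ring of the 20S core, Psma2, Psma4 and Psma6 fell in mRNA, while Psma1, Psma3, Psma5 and Psma7 were not called. Of all genes tested, 32.1% were called lower. Psma4 fell from 202, 208 and 195 CPM in ESC total RNA to 139, 145 and 146 CPM in EpiLCs (log2 −0.49, SE 0.08, limma-voom adjusted p 0.00011), with no overlap. Psma7 gave 299, 316 and 251 CPM in ESCs and 310, 316 and 318 CPM in EpiLCs, which overlapped. Psma3 was the least abundant constitutive subunit per length, at 17.4 CPM per kb in ESC total RNA beside a median of 173 for the set. Reads with more than one genomic position were not counted, so genes with near-identical copies are uncertain, and the part this has in the level of Psma3 was not tested.

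Of the 7 constitutive β genes, 6 fell in mRNA, beside 32.1% of all genes, and Psmb2 was not called (log2 0.00, SE 0.08). Psmb6, the caspase-like protease, was the most abundant constitutive subunit per length in total RNA, at 447 CPM per kb in ESCs and 345 in EpiLCs. It gave 355, 364 and 350 CPM in ESCs and 271, 281 and 273 CPM in EpiLCs (log2 −0.37, SE 0.07, limma-voom adjusted p 0.00019). The groups were far apart for their spread. Psmb5, the chymotrypsin-like protease, fell from 43.3, 45.3 and 39.5 CPM to 32.6, 35.5 and 33.6 CPM (log2 −0.34, SE 0.08, limma-voom adjusted p 0.0022). Psmb7, the trypsin-like protease, showed the smallest called fall, from 282, 294 and 278 CPM to 237, 263 and 257 CPM (log2 −0.18, SE 0.07, limma-voom adjusted p 0.043). That call was lost in 12 of 24 alternative fits (adjusted p up to 0.29), among them those without any one total library other than ESC total 3 and those without EpiLC 4sU library 2 or 3. None of the 7 was called in nascent RNA: Psmb6 gave 73.4, 85.2 and 83.5 CPM in ESC 4sU and 71.9, 77.8 and 68.2 CPM in EpiLC 4sU libraries.

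In the 19S particle, all 6 ATPase genes were called lower in EpiLC mRNA, beside 32.1% of all genes. They ranged from Psmc6 (log2 −0.29) to Psmc5 (log2 −0.62). Psmc5 went from 285, 282 and 244 CPM to 169, 180 and 181 CPM (SE 0.08, limma-voom adjusted p 1.2e-05). Its 4sU libraries gave 91.2, 103 and 111 CPM in ESCs and 88.6, 92.2 and 82.8 CPM in EpiLCs, which overlapped. Psmc3 was the one ATPase gene called lower in nascent RNA too (log2 −0.47 there and −0.48 in mRNA). Psmc6 was called in opposite directions, lower in mRNA and higher in nascent RNA (log2 0.24, SE 0.09, limma-voom adjusted p 0.034), and the nascent call was lost in 5 of 24 alternative fits, among them those without ESC 4sU library 1 (log2 0.20) or EpiLC 4sU library 2 (log2 0.22).

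Of the 11 non-ATPase genes, 8 fell in mRNA, beside 32.1% of all genes, and Psmd6, Psmd7 and Psmd11 were not called. Psmd4, a ubiquitin receptor, had the largest fall of the constitutive set, from 328, 315 and 321 CPM to 203, 203 and 220 CPM (log2 −0.62, SE 0.06, limma-voom adjusted p 7e-07). Psmd2, a large scaffold subunit at the base, fell from 642, 624 and 640 CPM to 455, 471 and 485 CPM (log2 −0.43, SE 0.06, limma-voom adjusted p 2.4e-05). Neither was called in nascent RNA. Psmd14, the deubiquitinase of the lid, fell by 0.21 on the log2 scale (SE 0.08, limma-voom adjusted p 0.037). Psmd11, a lid subunit, rose in nascent RNA, from 119, 114 and 97.6 CPM to 135, 143 and 132 CPM (log2 0.31, SE 0.09, limma-voom adjusted p 0.011), and its mRNA was not called (log2 −0.03). The difference between its changes was −0.34 (SE 0.12, limma-voom adjusted p 0.12). Psmd13 and Psmd8, also of the lid, fell in both, by 0.51 and 0.56 in mRNA and by 0.58 and 0.42 in nascent RNA on the log2 scale.

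**Figure D2:**
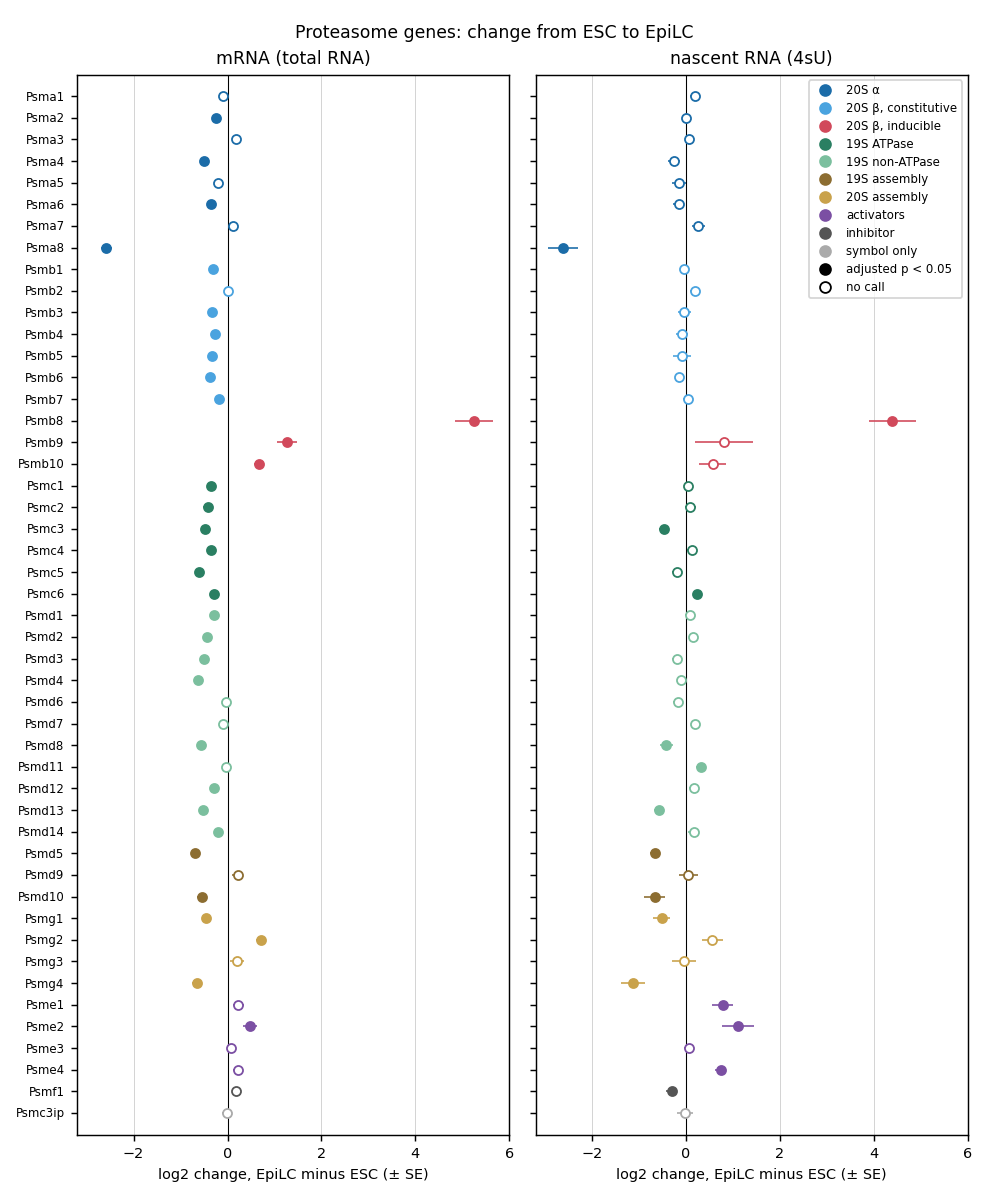
Log2 change from ESC to EpiLC with its SE for each of the 48 tested members, in mRNA (left) and nascent RNA (right), coloured by role, with filled points for an adjusted p under 0.05. The constitutive genes sit just left of zero in mRNA and around zero in nascent RNA, and Psmb8 and Psma8 lie far out on opposite sides in both panels.

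The members with the largest changes were variant subunits outside the constitutive set. Psma8, a testis-enriched α subunit of the spermatoproteasome (chromosome 18, 14706151 to 14762299, plus strand, mm10), was measurable in ESCs and fell in EpiLCs. Total RNA gave 52.6, 54.6 and 50.4 CPM in ESCs and 8.70, 9.66 and 7.95 CPM in EpiLCs. Nascent RNA gave 10.2, 12.2 and 10.03 CPM in ESCs and 0.942, 2.33 and 2.08 CPM in EpiLCs. Every EpiLC library was far below every ESC library. The log2 change was −2.58 (SE 0.12, limma-voom adjusted p 3.5e-10) in mRNA and −2.62 (SE 0.33, limma-voom adjusted p 1.4e-05) in nascent RNA. Per length, Psma8 stood at 9.89% ± 0.829 (SD, n = 3) of its constitutive counterpart Psma7 in ESC total RNA and at 1.505% ± 0.149 in EpiLCs. It was the only member past a log2 change of −1 in mRNA, a rule that called 11.2% of all genes lower and 16.3% higher.

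The immunoproteasome genes moved the other way. Psmb8 (chromosome 17, 34197790 to 34201454, plus strand) was almost absent from ESCs, with 7 reads over the 3 ESC total libraries and 201 over the 3 EpiLC total libraries. Those libraries gave 0.116, 0.151 and 0.197 CPM in ESCs and 7.59, 6.25 and 6.66 CPM in EpiLCs. The ratio of the summed counts was 45.9 (95% exact interval 21.9 to 116, counting error only). In 4sU RNA, Psmb8 had 0 reads in all 3 ESC libraries and 2.83, 2.54 and 1.19 CPM in EpiLCs, a mean at least 2.69-fold higher than 3 counts in the shallowest ESC library. The limma-voom adjusted p was 4.2e-08 in mRNA and 5.6e-06 in nascent RNA. Psmb9 (chromosome 17, 34181988 to 34187764, minus strand) gave 1.62, 2.57 and 2.85 CPM in ESC total RNA and 4.80, 5.69 and 5.57 CPM in EpiLCs (log2 1.26, SE 0.21, limma-voom adjusted p 0.00011). Its nascent RNA rested on 4 reads in ESCs and 7 in EpiLCs and was not called. Psmb8 and Psmb9 passed the filter, which used CPM before TMM adjustment, through EpiLC libraries alone (4 and 3 libraries at 3 CPM, none in ESCs), so some difference between the cell types was built into their selection. Of the 10 fibroblast markers, Dcn and Col1a2 moved at a similar level and likewise reached 3 CPM in EpiLC libraries alone. Dcn had 0 reads in the ESC libraries and 4.81 CPM ± 0.439 (SD, n = 3) in EpiLC total RNA. Col1a2 went from a mean of 0.157 CPM to 4.26 ± 0.690. Fbln2 rose less (log2 0.81), and Pdgfrb fell from 8.54 ± 2.32 CPM to 2.02 ± 0.401 (log2 −1.97). Thy1 and Pdgfra were not called, and Col1a1, Col3a1, Lum and Postn were too low to test. The part of fibroblasts in these results was not tested.

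Psmb10, which passed the filter in all 12 libraries, rose from 13.6, 16.8 and 15.5 CPM to 21.9, 24.8 and 25.9 CPM in total RNA (log2 0.67, SE 0.11, limma-voom adjusted p 0.00012). Its 4sU libraries gave 4.09, 3.399 and 5.42 CPM in ESCs and 5.89, 5.51 and 7.42 CPM in EpiLCs, which did not overlap but were not called (log2 0.57, SE 0.29). Even so, the constitutive proteases dominated in both cell types. Per length, Psmb8, Psmb9 and Psmb10 together made up 1.79% ± 0.207 (SD, n = 3) of the summed mRNA of the 6 catalytic genes in ESCs and 4.24% ± 0.174 in EpiLCs. Psmb11 had 1 read in one ESC and 1 in one EpiLC total library and 0 elsewhere, and Psme2b gave 0.579, 0.403 and 0.393 CPM in ESC and 0.781, 0.758 and 0.596 CPM in EpiLC total RNA.

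**Figure D3:**
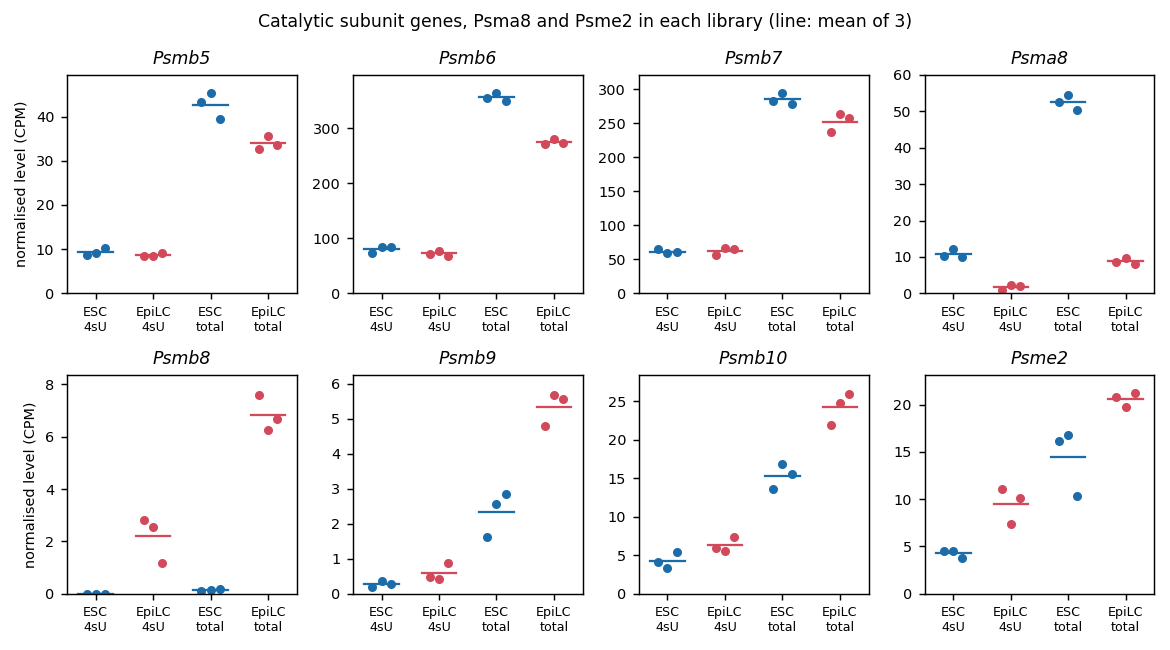
CPM of 8 members in every library (points; the line is the mean of 3), by cell type and assay, each panel on its own linear axis from zero. The constitutive proteases Psmb5, Psmb6 and Psmb7 step down in EpiLC total RNA, Psma8 is lower in every EpiLC library, and Psmb8, Psmb9, Psmb10 and Psme2 are higher in every EpiLC total library than in any ESC total library.

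Of the 4 tested activator genes, 3 rose in nascent RNA and 1 in mRNA, beside 23.7% and 31.4% of all genes called higher. Psme1 and Psme2 encode the interferon-inducible 11S cap and lie close together on chromosome 14. Psme2 gave 4.498, 4.47 and 3.80 CPM in ESC 4sU and 11.1, 7.42 and 10.1 CPM in EpiLC 4sU libraries (log2 1.10, SE 0.34, limma-voom adjusted p 0.014). Without EpiLC 4sU library 1 the change was 1.04 and the call was lost (limma-voom adjusted p 0.05045). Psme2 and Psmb8 passed a log2 change of 1 in nascent RNA and Psma8 and Psmg4 passed −1, which 11.9% of all genes passed upwards and 13.5% downwards. In mRNA Psme2 gave 16.2, 16.8 and 10.3 CPM in ESCs and 20.8, 19.7 and 21.2 CPM in EpiLCs (log2 0.48, SE 0.15, limma-voom adjusted p 0.011). That mRNA call was lost in 1 of 24 alternative fits, over which the log2 change ran from 0.31 to 0.61. Psme1 rose in nascent RNA from 13.9, 13.4 and 18.2 CPM to 29.0, 22.3 and 25.5 CPM (log2 0.78, SE 0.21, limma-voom adjusted p 0.0072). Its mRNA overlapped between the cell types (log2 0.23, SE 0.12).

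Psme4 encodes the large PA200 cap. Its nascent RNA rose from 204, 167 and 214 CPM to 330, 342 and 295 CPM (log2 0.74, SE 0.12, limma-voom adjusted p 0.00012). Its mRNA gave 800, 785 and 1008 CPM in ESCs and 1014, 980 and 991 CPM in EpiLCs (log2 0.22, SE 0.10, limma-voom adjusted p 0.066). The ESC total library numbered 3 was the high one, and without it the mRNA change was 0.33 (limma-voom adjusted p 0.0019). Psme3, the nuclear 11S cap, differed by 0.07 in each (SE 0.09 in mRNA, 0.10 in nascent RNA). Psmf1, an inhibitor of the 20S core, gave 33.3, 32.3 and 29.8 CPM against 33.6, 36.6 and 38.7 CPM in total RNA and was not called (log2 0.19, SE 0.09). Its nascent call (log2 −0.31, SE 0.11, limma-voom adjusted p 0.035) was lost in 14 of 24 alternative fits, including those without any one 4sU library but ESC 4sU 2 and those without ESC total library 1 or EpiLC total library 2.

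The assembly factors did not move as a group. Psmd5 and Psmd10, chaperones of the 19S base, fell in both RNA pools. Psmd5 went from 175, 175 and 156 CPM to 96.7, 112 and 103 CPM in total RNA (log2 −0.70, SE 0.08, limma-voom adjusted p 3.8e-06), and by −0.65 (SE 0.11) in nascent RNA. Psmd10 changed by −0.55 (SE 0.10) in mRNA and −0.67 (SE 0.22) in nascent RNA. The nascent call of Psmd10 was lost in 4 of 24 alternative fits, among them those without ESC 4sU library 2 (log2 −0.63) or EpiLC 4sU library 3 (log2 −0.37). Psmd9, the other base chaperone, gave 26.7, 24.4 and 24.5 CPM against 25.8, 29.3 and 32.7 CPM and was not called.

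Of the 20S assembly chaperones, Psmg1 and Psmg2 form one pair and Psmg3 and Psmg4 another, and differences between partners were not tested. Psmg2 rose in mRNA, from 43.1, 44.6 and 32.8 CPM to 64.3, 67.5 and 65.4 CPM (log2 0.71, SE 0.11, limma-voom adjusted p 5.8e-05), while Psmg1 fell from 104, 106 and 94.3 CPM to 72.1, 74.9 and 75.1 CPM (log2 −0.46, SE 0.08, limma-voom adjusted p 0.00015). Psmg4 fell from 31.5, 29.7 and 29.3 CPM to 18.2, 19.4 and 19.6 CPM in mRNA (log2 −0.66, SE 0.11, limma-voom adjusted p 7.5e-05). In nascent RNA it changed by −1.13 (SE 0.26, limma-voom adjusted p 0.0021). Psmg3 was expressed at only 6.49 to 9.94 CPM in total RNA and was not called. Psmc3ip, taken by its symbol alone, changed by −0.01 (SE 0.11) in mRNA.

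Relative mRNA stability was read as the log2 ratio of total to 4sU RNA and ranked among all genes, since its zero is set by the scaling. In both cell types the proteasome genes ranked high. The 31 constitutive genes had a median of 2.00 in ESCs, the 94.5th percentile of all genes tested, and of 1.78 in EpiLCs, the 92.1st percentile. The medians of all genes were 0.03 and 0.15, and those of the protein-coding genes alone were 0.30 and 0.37. Of the 31, 30 lay above the all-gene median in ESCs and 29 in EpiLCs. Among all members, Psmb3 (2.63) and Psmd2 (2.59) were highest in ESCs and Psmf1 (−0.68) and Psma3 (−0.26) lowest. In EpiLCs Psmb9 (3.01, on 7 nascent reads) and Psmg1 (2.59) were highest, and Psmf1 (−0.19) and Psma3 (−0.16) again lowest. The constitutive set also had short exon models (median 1541 bases against 3056 for all genes tested) and high mRNA levels (median 253 CPM against 24.5), and the part these have in the ratio was not tested.

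The stability change, the mRNA change minus the nascent change, asks whether the 2 RNA pools moved apart. Of the 31 constitutive genes, 4 were called lower in EpiLCs, none higher and 27 not called, and these 4 were also the only calls among the 48 members. By this rule 1.88% of all genes tested were lower and 2.72% higher. The called genes were Psmd2 (log2 −0.57, SE 0.10, limma-voom adjusted p 0.0094), Psmd4 (−0.52, SE 0.10, limma-voom adjusted p 0.015), Psmc6 (−0.54, SE 0.12, limma-voom adjusted p 0.020) and Psmc4 (−0.47, SE 0.12, limma-voom adjusted p 0.035). All 4 encode 19S subunits. The activator gene Psme4 stood at −0.52 (SE 0.15, limma-voom adjusted p 0.066) and was called lower in 12 of 24 alternative fits. Psmd2 shows the form of the difference: 4sU libraries gave 98.8, 105 and 113 CPM in ESCs and 119, 117 and 110 CPM in EpiLCs, and the total libraries stepped down as given above.

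The median stability change of the constitutive set was −0.26, against 0.11 for all genes tested and 0.06 for the protein-coding ones. Of the 31 genes, 1 lay above the all-gene median. By role the medians were −0.16 for the 20S α genes with Psma8, −0.23 for the constitutive β genes, −0.34 for the 19S non-ATPases and −0.45 for the ATPases. These medians are made of the same libraries as the 2 changes above and are no further evidence for them. When the 4sU and total libraries of one cell type and number were paired as a replicate block by culture, 8 constitutive genes were lower, and among all members 9 were lower, with Psme4, and 1 was higher (Psmf1, log2 0.49). DESeq2 called 13 constitutive genes lower. The count of 4 was not firm when single libraries were left out either: without the ESC total library numbered 3 it was 11, without the ESC 4sU library numbered 3 it was 7, and it was 2 without the EpiLC 4sU library numbered 2, the EpiLC total library numbered 2 or the EpiLC total library numbered 3. The call for Psmc6 was lost in 3 of 24 alternative fits, those without the same 3 EpiLC libraries (adjusted p 0.071, 0.054 and 0.056 by limma-voom). The median of the set lay below that of all genes in each of the 25 fits of the stability change, by 0.32 to 0.46 on the log2 scale.

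**Figure D4:**
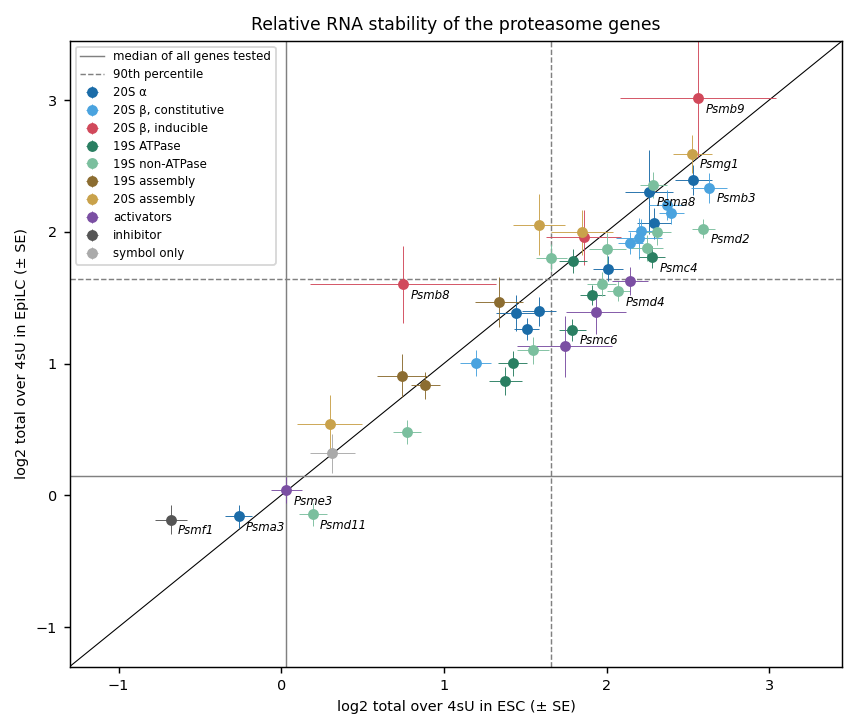
Log2 ratio of total to 4sU RNA in ESC (x axis) and EpiLC (y axis) for the 48 tested members, with SE, coloured by role. Solid grey lines mark the median and dashed lines the 90th percentile of all genes tested. Most members sit in the upper right, with many constitutive 20S and 19S genes below the diagonal of equal ratio.

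Genes that act with the proteasome are read against the shares of all genes called in mRNA, 31.4% higher and 32.1% lower. Of 9 proteasome-associated genes outside the symbol rule, 2 fell in mRNA, Adrm1 (a ubiquitin receptor, log2 −0.38) and Pomp (the 20S maturation factor, −0.24), and 1 rose. The rise was Ecpas, a proteasome adaptor, from 93.0 ± 22.4 CPM (SD, n = 3) to 239 ± 7.93 CPM (log2 1.40, SE 0.12, limma-voom adjusted p 1.9e-07). Usp14, a proteasome-bound deubiquitinase, was the one gene of this list with a called stability change (log2 −0.56, limma-voom adjusted p 0.049).

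Of 12 tested genes for the transcription and feedback of proteasome genes, 6 rose and 5 fell in mRNA, beside 31.4% and 32.1% of all genes. The CNC factors fell: Nfe2l1 by 0.39 on the log2 scale (256 ± 14.1 CPM in ESCs and 195 ± 2.47 CPM in EpiLCs, SD, n = 3), Nfe2l2 by 0.59 and Nfe2l3 by 0.93. Nfe2l1 also fell in nascent RNA, by 0.54. The small Maf partners Maff (log2 1.53), Mafk (1.205) and Mafg (0.31) rose, and Keap1, the adaptor that targets Nfe2l2, fell by 0.72. Ddi2 and Ngly1, which process the Nfe2l1 protein, rose by 0.36 and 0.43. The median of this list was 0.21 in mRNA.

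Of 13 genes of ubiquitin supply and shuttling, 3 rose and 4 fell in mRNA, near or below the 31.4% and 32.1% of all genes. The ubiquitin-activating enzyme gene Uba1 fell by 0.37 and the shuttle gene Rad23b by 0.47, and both were called lower in stability as well (log2 −0.44 and −0.50). In stability 3 of the 13 were called lower and 1 higher, beside 1.88% and 2.72% of all genes. Ubb, a ubiquitin gene, fell by 0.65, and Ubqln2, a shuttle gene, rose by 1.47.

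Antigen-processing genes share interferon control with Psmb8, Psmb9 and Psmb10. Of 19, 11 rose and 4 fell in mRNA, beside 31.4% and 32.1% of all genes, with a median of 0.41. The peptide transporter genes Tap1 and Tap2, beside Psmb9 and Psmb8 on chromosome 17, rose by 1.99 and 2.08. The class I transactivator gene Nlrc5 rose by 3.55, the peptide trimming gene Erap1 by 2.97, Irf1 by 1.30 and H2-K1 by 1.17. Genes that act downstream of the interferon receptors fell on the log2 scale, Stat2 by 1.62 and Irf9 by 1.24, while the receptor gene Ifngr1 rose by 1.19. Psmb9 and Tap1 overlap on opposite strands by 212 exon bases, and counting used strand. Of the immune cell markers, Ptprc, Cd52 and Tyrobp were each below 1 CPM in the mean of every group, and Laptm5 went from 53.7 ± 10.5 CPM (SD, n = 3) in ESC total RNA to 0.928 ± 0.421 in EpiLCs. Coro1a was the one tested gene of that list that rose, from 4.41 ± 1.56 to 12.5 ± 0.788 CPM (SD, n = 3). The fibroblast markers Dcn and Col1a2 rose and Pdgfrb fell as given above, and the part of such cells in the antigen-processing values was not tested.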

How the data were processed

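The authors trimmed the reads with cutadapt 1.14, kept those that STAR 2.5.3a placed once on mm10, and counted them by strand over GENCODE genes with featureCounts 1.5.3, and the deposited values are raw counts per gene. Total RNA was rRNA-depleted, and libraries were stranded and single-end, from either of a pair of kits that are not assigned to libraries in the sources used here. Gene names came from a GENCODE mouse annotation (51274 of 51467 identifiers matched), and 0 columns of sample values were left unused. Genes had to reach 3 CPM, before TMM adjustment, in 3 or more libraries. All 12 libraries entered a single limma-voom fit in R 4.3.3, using limma 3.58.1 and TMM factors from edgeR 4.0.16, with Benjamini-Hochberg adjustment over 14731 genes and a call at adjusted p under 0.05. Contrasts were EpiLC minus ESC in total RNA and in 4sU RNA, their difference, and total minus 4sU within each cell type. The steps were tested on simulated counts. Genes named were the proteases, inducible subunits, caps, inhibitor and assembly chaperones, the 3 largest calls in each direction, members past a log2 change of 1, the extremes of relative stability and the members that failed the filter. Members and gene lists were chosen with earlier results of these data known, and genes named beyond that rule were chosen after their values were seen. Alternatives changed the scaling, filter, gene set, tool (DESeq2 1.42.0), weights, blocking and libraries.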

Additional observations from a re-analysis of the deposited data

Results flagged for a closer look

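For 4 genes of the 19S particle the change in mRNA differed from the change in nascent RNA by the interaction term of the limma-voom fit. The difference was −0.57 on the log2 scale for Psmd2, −0.54 for Psmc6, −0.52 for Psmd4 and −0.47 for Psmc4, each with mRNA lower in EpiLCs relative to nascent RNA. Groups held 3 libraries, and no formal test for outlying samples was run. Both ESC libraries numbered 3 stood apart from the other ESC libraries on the third principal component. Without the ESC total library numbered 3, 11 constitutive genes were called lower in stability, against 4 in the main fit.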

How the results depend on the processing

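Over 24 alternatives the median of the constitutive set stayed below the median of all genes in mRNA and in stability. Calls past a log2 change of 1 left 2 members higher and 1 lower in mRNA (0 of the constitutive set), 2 and 2 in nascent RNA (0 constitutive) and 0 in stability. The 2 higher in mRNA were Psmb8 and Psmb9, which passed the expression filter through EpiLC libraries alone. Psmb8 was also among those higher in nascent RNA. For mRNA, members called higher numbered 11 with library totals alone, 9 with sample quality weights and 8 with the assay's libraries alone, against 5, and the constitutive genes called higher were 2, 1 and 1, and 1 with both ESC libraries numbered 3 left out, against 0. For nascent RNA, DESeq2 called 10 members higher (5 constitutive), TMM within each assay called 4 constitutive genes higher and no filter 1, quality weights called 5 constitutive genes lower, and the assay's libraries alone called 5 members lower; the constitutive median was 0.049 with RLE, 0.055 with TMM within each assay, 0.045 with DESeq2 and 0.065 with the assay alone. For stability, members called lower (constitutive genes in brackets) numbered 9 (8) with RLE, 7 with TMM within each assay, 9 (8) with protein-coding genes only, 14 (13) with DESeq2, 14 (12) with quality weights, 9 (8) with the replicate block by culture and 13 (11) without both ESC libraries numbered 3, and 1 was called higher with library totals, quality weights, the block by culture or those 2 libraries left out. The constitutive stability median was −0.34 with RLE, protein-coding genes only or DESeq2 and −0.37 with no filter. The relative stability medians in ESC and EpiLC were 1.94 and 1.62 with RLE, 1.78 and 1.61 with library totals, 1.84 and 1.55 with TMM within each assay, 2.22 and 1.90 with no filter, 2.11 and 1.87 with filterByExpr, 1.74 and 1.43 with protein-coding genes only, and 1.95 in ESC without the ESC libraries numbered 3. The causes were not tested.

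Leaving out one library at a time gave 4 to 6 members higher and 24 to 29 lower in mRNA (constitutive 0 to 1 and 19 to 24, median −0.37 to −0.29), 5 to 8 and 5 to 11 in nascent RNA (constitutive 1 to 4 and 2 to 6, median −0.036 to 0.091) and 0 to 1 and 2 to 13 in stability (constitutive 0 and 2 to 11, median −0.39 to −0.23). Relative stability medians were 1.87 to 2.03 in ESC and 1.60 to 1.81 in EpiLC. The 4sU and total libraries were made from divided samples, but whether numbers mark them is not stated: deviations of 4sU and total libraries with the same number correlated at 0.163 to 0.408 in ESC and 0.0234 to 0.0747 in EpiLC, and 5 of 6 ESC and 4 of 6 EpiLC libraries correlated best with their own number. With the number as a replicate block, 5 members were higher and 26 lower in mRNA, 7 and 9 in nascent RNA and 0 and 5 in stability.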
